A study of Homo sapiens with 6 samples.

Results

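The genes described here are 9 components of antigen presentation by MHC class I: the heavy chain genes HLA-B and HLA-C, the light chain gene B2M, the peptide transporter genes TAP1 and TAP2, the loading chaperone gene TAPBP, and PSMB8, PSMB9 and PSMB10, which encode the catalytic subunits of the immunoproteasome. They were chosen by symbol, and all 9 were found among the 54261 gene symbols of the count table. RNA sequencing counts came from 6 libraries of T24, an established human bladder cancer cell line. The 3 control libraries were from cells with the control lentivirus HBLV-ZsGreen-PURO. The 3 knockdown libraries were from cells with a lentivirus of the same kind carrying shRNA2, 1 of the study's short hairpin RNAs against MTHFD2, a mitochondrial enzyme of folate metabolism. Both vectors are named for the fluorescent protein ZsGreen, and the treatment protocol states that the cell lines were selected with puromycin. With 1 hairpin sequenced, loss of MTHFD2 and other effects of that hairpin cannot be told apart. Nothing in the labels ties the replicates to cultures of their own, and each p-value is measured against a spread that may be technical.

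MHC class I molecules show peptides from inside a cell to CD8 T cells. The proteasome cuts proteins into peptides, TAP1 and TAP2 carry these into the endoplasmic reticulum, and tapasin, the product of TAPBP, helps load them onto a heavy chain paired with beta-2-microglobulin. Interferons and NF-kB raise most of these genes, and under interferon the subunits PSMB8, PSMB9 and PSMB10 take the places of PSMB5, PSMB6 and PSMB7. Tumours, bladder cancer included, can escape T cells by lowering them.

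The promoters of 4 members are shown because they carry the regulatory elements this gene set is known for, in genes that the table measured well (B2M and PSMB10) and in genes that it listed at or near 0 (HLA-B and TAP1). Each run is 250 bases before to 50 after the RefSeq gene start, 5′ to 3′ on the gene's strand (build GRCh38.p14). Capitals mark the interferon-stimulated response element (ISRE), searched as GAAA, any 2 bases and GAAA again, or, in HLA-B, the class I kappa B element, both on either strand.
B2M (chr15:44711267-44711566, plus strand): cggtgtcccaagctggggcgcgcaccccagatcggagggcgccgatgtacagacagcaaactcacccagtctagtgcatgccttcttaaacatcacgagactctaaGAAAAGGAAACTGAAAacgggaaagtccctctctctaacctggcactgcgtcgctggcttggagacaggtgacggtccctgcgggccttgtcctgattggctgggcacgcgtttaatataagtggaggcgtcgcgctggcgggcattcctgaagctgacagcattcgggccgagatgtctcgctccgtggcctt
PSMB10 (chr16:67936801-67937100, minus strand): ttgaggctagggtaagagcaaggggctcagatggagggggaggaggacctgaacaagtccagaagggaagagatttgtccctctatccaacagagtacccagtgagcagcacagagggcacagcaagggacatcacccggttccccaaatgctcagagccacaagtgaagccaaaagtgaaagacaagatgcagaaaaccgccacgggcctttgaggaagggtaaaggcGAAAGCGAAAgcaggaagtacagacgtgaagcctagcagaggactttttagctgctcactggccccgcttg
HLA-B (chr6:31357130-31357429, minus strand): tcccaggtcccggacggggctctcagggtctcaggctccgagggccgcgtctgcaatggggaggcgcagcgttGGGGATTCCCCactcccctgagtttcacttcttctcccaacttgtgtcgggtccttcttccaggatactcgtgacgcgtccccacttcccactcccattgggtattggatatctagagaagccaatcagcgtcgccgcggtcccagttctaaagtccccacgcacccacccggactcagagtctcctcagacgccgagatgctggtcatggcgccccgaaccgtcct
TAP1 (chr6:32853655-32853954, minus strand): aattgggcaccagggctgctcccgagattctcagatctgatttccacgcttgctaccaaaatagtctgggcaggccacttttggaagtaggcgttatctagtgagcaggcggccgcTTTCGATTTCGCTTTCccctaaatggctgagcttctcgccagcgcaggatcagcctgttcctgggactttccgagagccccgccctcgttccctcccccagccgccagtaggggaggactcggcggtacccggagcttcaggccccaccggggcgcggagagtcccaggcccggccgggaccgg
The capitals in B2M and in TAP1 each hold 2 overlapping matches. An ISRE match was found for 6 of the 9 members (B2M, PSMB10, PSMB8, TAP1, TAP2 and TAPBP), against 3.57% of all 35116 promoter windows. Members are counted by gene, whereas the share over all promoters is counted by window. For PSMB8 and TAP1, which have more than 1 window, a single window held it. A second interferon element, GAS (TTCNNNGAA, N being any base), was found for PSMB8 and TAP1 and in 7.66% of all windows. The kappa B element was found in HLA-B alone among the members and in 0.0313% of all windows (11), and the shorter GGGGATTCC that it contains in HLA-B and 0.285% of all windows. ATTGG, the inverted CCAAT box, was found for B2M, HLA-B, HLA-C, PSMB9 and TAP1, and in 34.6% of all windows. Such matches describe letters and show no binding.

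The libraries held 17801990 to 19978392 counts. MTHFD2, the targeted gene (chromosome 2, 74198562 to 74217565) had counts of 3241, 3613 and 3417 in controls against 538, 667 and 686 after knockdown. Of 16 urothelial and epithelial markers, 6 had a mean of at least 1 CPM: KRT7, KRT8, KRT18, PPARG, FOXA1 and UPK1B. Among markers of late differentiation, KRT20 and UPK3A were at 0, whereas UPK1A, UPK1B and UPK2 held 103, 485 and 15 counts over the 6 libraries. The sum over the list was 2120 to 2520 CPM (CPM is the count scaled to library size) in the control and 1010 to 1330 CPM in the knockdown libraries, most of it from KRT8 and KRT18. The list did not move one way: KRT8 and KRT18 fell by 1.27 and 0.89 on the log2 scale (edgeR adjusted p = 0.000191 and 0.00157), while UPK1A and FOXA1 rose by 1.72 and 0.53 (edgeR adjusted p = 0.0141 and 0.047), and PPARG at 0.04 did not pass. Endothelial markers summed to at most 3.07 CPM.

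Of the 9 members, the table measured B2M and PSMB10 at levels that allow a comparison, and PSMB10 fell after knockdown while B2M did not pass the test. TAP2 was tested at a low count. The other 6 were listed at 0 or at single-digit counts in every library, and did not pass the filter on low counts. TAP1, PSMB8 and PSMB9 had 0 counts in all 6 libraries. HLA-B had counts of 1, 1 and 1 in control replicates 1 to 3 and of 3, 3 and 5 in knockdown replicates 1 to 3. HLA-C held 5, 2 and 4 against 3, 9 and 6, and TAPBP 4, 0 and 2 against 2, 4 and 0. The knockdown libraries lay above the controls for HLA-B and overlapped them for HLA-C and TAPBP, all at counts from which no fold change is given.

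**Figure D1:**
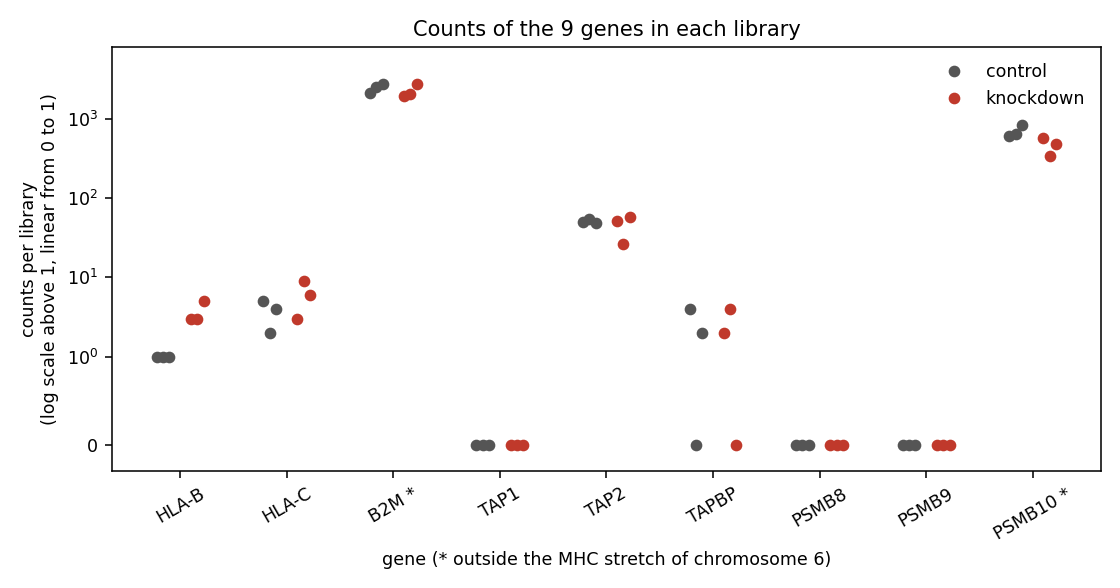
Counts of each member in the 3 control (grey) and 3 knockdown (red) libraries, 1 point per library, on an axis that is logarithmic above 1 and linear from 0 to 1. B2M and PSMB10, the members outside the MHC, have at least 343 counts in every library; TAP1, PSMB8 and PSMB9 lie at 0.

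The members with few or no counts share a position. HLA-B, HLA-C, TAP1, TAP2, TAPBP, PSMB8 and PSMB9 lie in the MHC on the short arm of chromosome 6, whereas B2M is on chromosome 15 and PSMB10 on chromosome 16. The stretch of chromosome 6 from HLA-F to TAPBP (GRCh38, 29722775 to 33314387) holds 140 protein-coding genes of the table, of which 108 (77.1%) had 0 counts in all 6 libraries and 4 (2.86%) had a mean of at least 10 counts. Over all other protein-coding genes 19.8% were at 0 and 61.4% had a mean of at least 10. On the HLA-F side, 42.1% of the 140 nearest protein-coding genes (17393216 to 29681110) reached that mean. On the TAPBP side it was 63.6% of the 140 nearest (33314406 to 43615660). Inside the stretch, MICA, HLA-DRA and TAP2 were among those that did. Low means also lay just past both ends. ZFP57 before HLA-F had a mean of 0.333 counts, and ZBTB22 and DAXX after TAPBP 1.67 and 0.333. GABBR1 and KIFC1, also near the ends, had 45.8 and 17.3.

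RPS18, TUBB, DDX39B, VARS and FLOT1, also in the stretch, were listed at 0 as well, and BAG6 and CSNK2B at or near 0. RPS18, a protein of the small ribosomal subunit, had 0 counts in every library. Over 29 other small-subunit genes the median was 688 CPM, and 24 were above 100 CPM. The lowest of the 29 was RPS10, at a mean of 2.09 CPM, which lies on chromosome 6 outside the stretch. RPS9, on chromosome 19 and not among those 29, had 1 count over all 6 libraries. TUBB, a beta tubulin, the splicing helicase gene DDX39B, the valyl-tRNA synthetase gene VARS and FLOT1 had 0 counts in every library, BAG6 had 1 count and CSNK2B 2 over all 6. These genes were chosen after their values were seen. A low count inside the stretch is not read here as low expression. The limit that a count of 0 normally sets (0.149 to 0.171 CPM for 3 counts at these depths) is not applied to it. The cause of the low counts was not tested.

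Likeness between genes of the reference annotation was measured over runs of 50 bases. Of the 50-base runs in TAP1 transcripts, 90.2% occurred in no other gene of the primary assembly. The share was 96.9% for PSMB9, 95.3% for TAPBP, 94.3% for HLA-C, 82.2% for HLA-B, 81.8% for PSMB8 and 68.7% for TAP2. Among the other genes of the stretch named above, it was 100.0% for VARS and FLOT1, 98.6% for BAG6 and 88.7% for RPS18. For TUBB, DDX39B and CSNK2B it was 76.1%, 73.3% and 70.2%. B2M was at 100.0%. Most runs of TAP1, VARS or TAPBP thus had no second copy in this annotation, which leaves out alternate sequences of the region. In GENCODE release 29 the gene model of HLA-B spans 31269491 to 31357188 and so overlaps that of HLA-C (31268749 to 31272130), both on the minus strand.

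**Figure D2:**
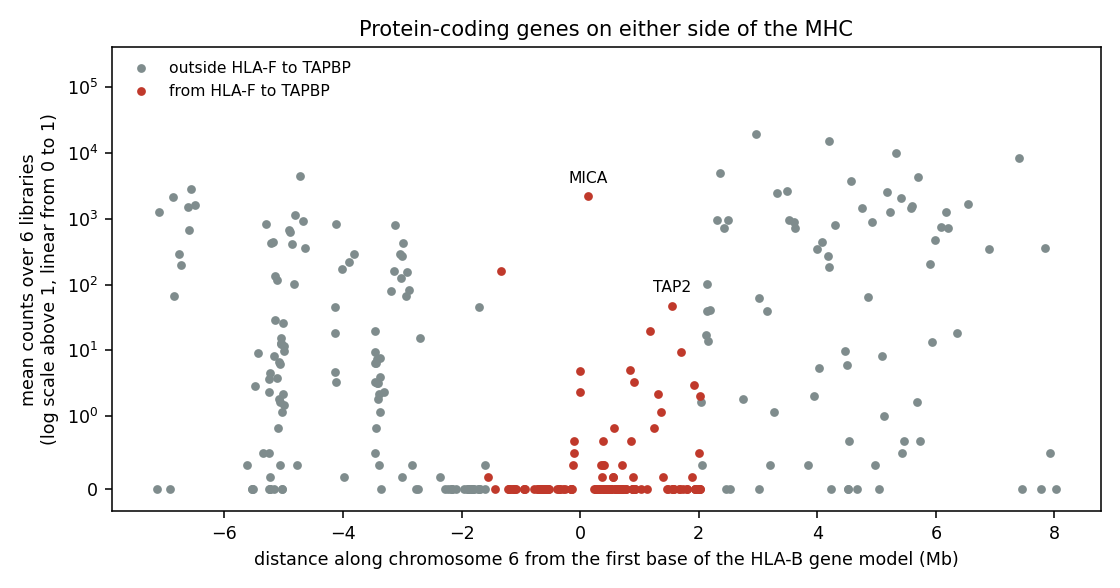
Mean count over the 6 libraries of each plotted protein-coding gene on both sides of the MHC, by its distance in Mb from the first base of the HLA-B gene model, on an axis that is logarithmic above 1. Of the 140 genes from HLA-F to TAPBP (red), 108 lie at 0, with MICA at a mean of 2214 counts the highest; genes on both sides are in grey.

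The immunoproteasome subunit PSMB10 (chromosome 16, 67934502 to 67937087, minus strand), which cuts after basic residues and replaces PSMB7, was the member that changed. It was at 35.2, 33.7 and 44.7 CPM in the control libraries and 28.5, 17.3 and 26.2 CPM after knockdown. Every knockdown library lay below every control library. The means were 37.9 ± 5.99 and 24 ± 5.93 CPM (SD, n = 3 each). The log2 fold change was -0.66 ± 0.18 (SE; 95% confidence interval -1.05 to -0.27; edgeR adjusted p = 0.0269), so the fitted level after knockdown was 63.4% of control. That made 1 of 3 tested members lower and 0 higher, where 7.58% of all 13896 tested genes were called lower, 9.71% higher and 17.3% either way. By DESeq2 the count of members was likewise 1 lower and 0 higher, and no tested member had an unadjusted edgeR p under 0.05 upward. Groups did not overlap for 39.1% of tested genes, 19% with knockdown lower and 20.1% with it higher. The call was lost without control replicate 1 (log2 fold change -0.72, edgeR adjusted p = 0.053) or control replicate 3 (-0.52, edgeR adjusted p = 0.11). With knockdown replicate 2 as the lone knockdown library the log2 fold change was -1.14 (edgeR adjusted p = 0.0022), and without that library it was -0.47 (edgeR adjusted p = 0.0471). Another protein-coding gene model, AC040162.1, overlaps PSMB10 on the same strand and shares its 547 runs of 50 bases that are not unique; it is no row of the table.

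In bulk RNA, fewer cells with a transcript and less RNA per cell cannot be told apart. Markers of fibroblasts, 10 genes such as COL1A1 and DCN, summed to 7.30 to 9.31 CPM in the control libraries and to 46.5, 12.2 and 40.6 CPM in knockdown replicates 1 to 3. Beside these sums, PSMB10 was at 28.5, 17.3 and 26.2 CPM in knockdown replicates 1 to 3, and the part of the markers in its fall was not tested. Markers of leukocytes, cells rich in immunoproteasome, summed to between 0.69 and 1.51 CPM over 10 genes in any library, and none of the 10 reached a mean of 1 CPM.

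B2M (chromosome 15, 44711487 to 44718877, plus strand), the light chain that every class I heavy chain needs, was at 121, 133 and 145 CPM in the control libraries. After knockdown it was at 97.1, 103 and 147 CPM. Knockdown replicates 1 and 2 lay below all controls and replicate 3 above them, so the groups overlapped. The log2 fold change was -0.20 ± 0.15 (SE; 95% confidence interval -0.52 to 0.12; edgeR adjusted p = 0.369). Without knockdown replicate 3 it was -0.41 (edgeR adjusted p = 0.0285), and with knockdown replicate 2 as the lone knockdown library -0.37 (edgeR adjusted p = 0.0475), so 1 library decides whether B2M is called lower.

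TAP2 (chromosome 6, 32821833 to 32838780, minus strand), the second chain of the peptide transporter, had counts of 50, 55 and 48 in the controls against 51, 26 and 57 in the knockdown group. Replicate 2 of the knockdown stood apart, with about as many counts in the other 2 as in the controls. The log2 fold change was -0.26 ± 0.29 (SE; 95% confidence interval -0.90 to 0.38; edgeR adjusted p = 0.561), and it was 0.02 without knockdown replicate 2. Against knockdown replicate 2 as the lone knockdown library it was -1.07 (edgeR adjusted p = 0.0362). TAP2 lies inside the stretch of low counts, and the part of its RNA that these counts represent was not tested. The protein-coding gene model AL669918.1 overlaps it on the same strand over 16948 bases. That model shares 2017 runs of 50 bases with TAP2 and has no row among the counts. The median log2 fold change of the 3 tested members was -0.26, which is the value of TAP2 itself, beside 0.01 for all tested genes.

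**Figure D3:**
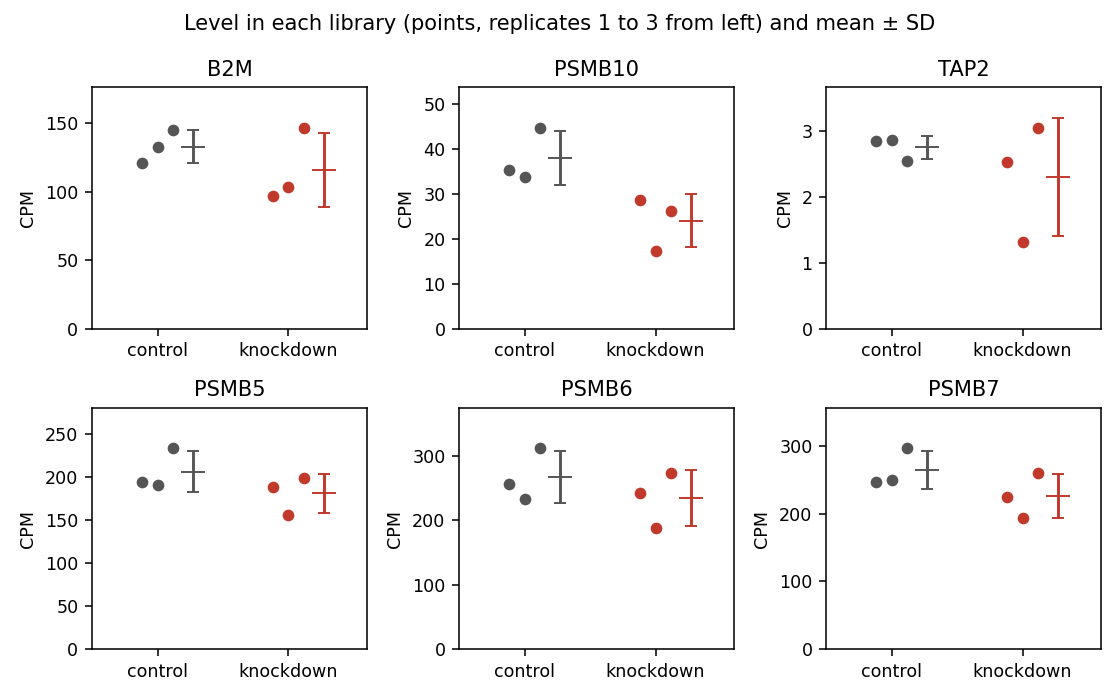
CPM of the 3 tested members (upper row) and of the standard proteasome subunits PSMB5, PSMB6 and PSMB7 (lower row) in each control (grey) and knockdown (red) library, with mean ± SD (n = 3) beside the points. PSMB10 is the panel in which all knockdown points, 17.3 to 28.5 CPM, lie below all control points, 33.7 to 44.7 CPM.

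The standard subunits that the immunoproteasome replaces were far more abundant and did not pass the test. Per kilobase of exon, PSMB10 was at 20.4 ± 3.23 RPKM in the control libraries, against 148 ± 15.6 for PSMB7, 185 ± 27.9 for PSMB6 and 117 ± 13.5 for PSMB5 (SD, n = 3). After knockdown PSMB10 was at 13.0 ± 3.20 RPKM and PSMB7 at 127 ± 18.4 RPKM. The log2 fold changes of PSMB5, PSMB6 and PSMB7 were -0.18, -0.19 and -0.23, with 95% confidence intervals of -0.45 to 0.08, -0.51 to 0.13 and -0.50 to 0.04. All 3 passed with knockdown replicate 2 as the lone knockdown library (edgeR adjusted p = 0.0424, 0.0282 and 0.0255). Within single libraries, PSMB10 counts were 14.2%, 13.5% and 15.1% of PSMB7 counts in the control group and 12.7%, 8.9% and 10.1% after knockdown. The log2 ratio differed by -0.45 between the groups, which did not overlap (two-sided exact permutation test, p = 0.1, the smallest that 3 against 3 allows; 0.6 adjusted over 6 gene pairs). The other 5 pairs each held a gene at 0 or at single-digit counts (PSMB8/PSMB5, PSMB9/PSMB6, HLA-B/HLA-C, TAP1/TAP2 and PSMB9/TAP1), and no ratio is read from them.

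Among 10 proteasome partners listed, all outside the MHC, 9 were tested, 1 fell and 0 rose, with a median log2 fold change of -0.20. Of all tested genes, 7.58% were called lower and 9.71% higher. The gene that fell was PSME3, which encodes PA28 gamma, a nuclear activator of the proteasome (-0.31 ± 0.09, edgeR adjusted p = 0.042). It went from 305 ± 2.86 to 246 ± 12.6 CPM (SD, n = 3), a call lost without any 1 control replicate or without knockdown replicate 2 (edgeR adjusted p up to 0.142), with plain library totals (0.0915) or with no filter on low counts (0.0703). PSME1 and PSME2, the interferon-induced PA28 subunits that serve antigen processing, did not pass, at log2 fold changes of -0.03 and -0.39 (edgeR adjusted p = 0.856 and 0.0558).

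Of 12 genes for folding of class I and trimming of its peptides, none lies in the MHC. All 12 were tested, 1 fell and 0 rose, with a median of -0.18, where 7.58% of all tested genes were called lower. SEC61A1, the channel through which new proteins enter the endoplasmic reticulum, fell from 422 ± 15.3 to 308 ± 45.9 CPM (-0.46 ± 0.12, edgeR adjusted p = 0.022), a call lost without any 1 control replicate (edgeR adjusted p up to 0.07). The loading chaperone genes CALR, CANX and PDIA3 were at log2 fold changes of -0.18, -0.06 and -0.07, and the peptide-trimming aminopeptidase genes ERAP1 and ERAP2 at -0.17 and -0.21, none past the threshold. TAPBPL, a relative of tapasin that edits peptides, averaged 2.98 CPM in controls against 2.41 CPM after knockdown and did not pass.

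Of 16 transcriptional regulators of class I, 15 were tested, 4 fell and 1 rose, with a median of 0.08. The shares over all tested genes were 7.58% lower and 9.71% higher, and no set test was run on the list. IRF1, the interferon-induced factor that drives the promoter between TAP1 and PSMB9, was at 30.1, 27.7 and 30.5 CPM in the control libraries and 20.6, 17.7 and 21.6 CPM after knockdown. The groups did not overlap, as for 19% of tested genes with knockdown lower. The change was -0.56 ± 0.12 on the log2 scale (SE; edgeR adjusted p = 0.00995). The call held whichever 1 of the 6 libraries was left out (edgeR adjusted p = 0.0123 to 0.0487). The NF-kB subunit genes NFKB1 and RELA fell by 0.38 ± 0.11 and 0.41 ± 0.12 on the log2 scale (edgeR adjusted p = 0.0345 and 0.0397). Both calls were lost with plain library totals (edgeR adjusted p = 0.0863 and 0.0764), without any 1 control replicate or without knockdown replicate 3, and that of RELA also without knockdown replicate 2 (edgeR adjusted p up to 0.122 and 0.136). NFYC, a subunit of the factor that binds the CCAAT box, fell by 0.44 ± 0.11 (edgeR adjusted p = 0.0168), a call lost without control replicate 1 or 3 (up to 0.0759). RFX5, a DNA-binding subunit at class I and class II promoters, rose by 0.38 ± 0.11 (edgeR adjusted p = 0.0347), from 64.9 ± 1.54 to 84.5 ± 10.2 CPM. Its call was lost on leaving out any 1 library other than knockdown replicate 3 (edgeR adjusted p up to 0.129). NLRC5, the activator dedicated to class I genes, averaged 3.46 CPM before and 3.65 CPM after knockdown (log2 fold change 0.08 ± 0.22, edgeR adjusted p = 0.839).

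**Figure D4:**
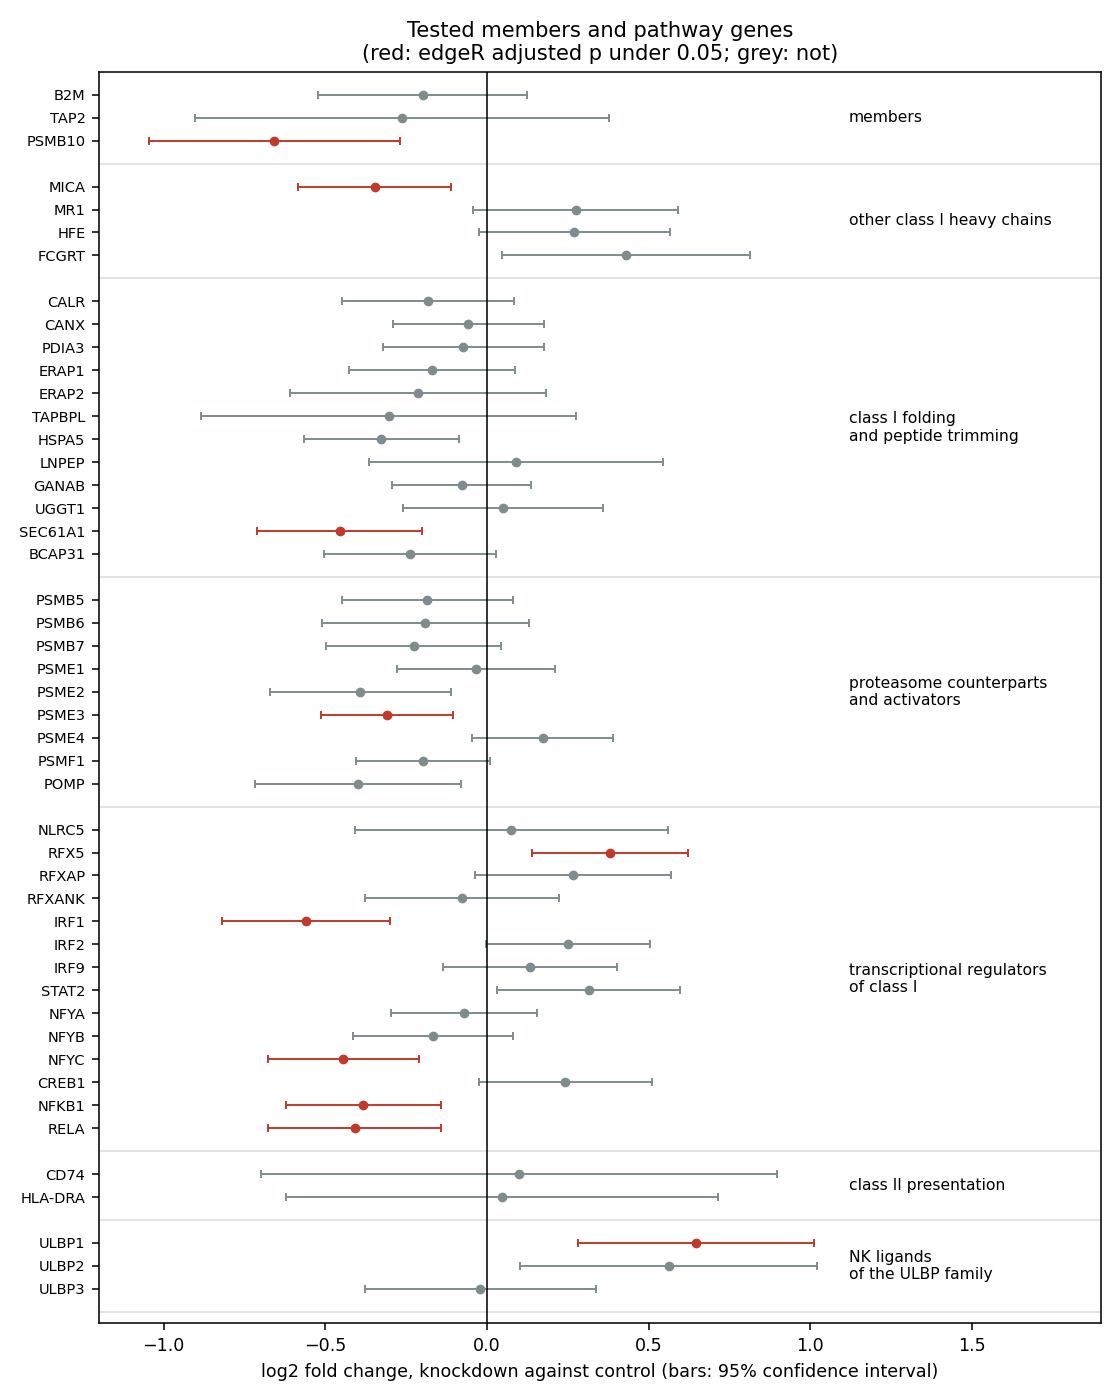
Log2 fold change, knockdown against control, with its 95% confidence interval for the tested members and tested genes of the pathway lists; red marks an edgeR adjusted p under 0.05. PSMB10 (-0.66) and IRF1 (-0.56) are the furthest below 0 of the red points, and ULBP1 (0.65) the furthest above.

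Other class I and class I-like heavy chains numbered 10, of which 6 lie in the stretch of low counts and 5 were tested. HLA-E, HLA-G and MICB were at 0 in every library and HLA-F held 1 count in all. MICA, a stress ligand of the NKG2D receptor of natural killer cells and the gene with the most counts in the stretch, held 2214 on average over the 6 libraries. Its counts fell from 131 ± 5.19 to 103 ± 11.9 CPM (-0.35 ± 0.11, edgeR adjusted p = 0.046). The part of MICA RNA that these counts represent was not tested. Its groups did not overlap, as for 19% of tested genes with knockdown lower. The call held without knockdown replicate 1 and was lost without any other 1 library (edgeR adjusted p = 0.024 to 0.151 over the 6), and with plain library totals (edgeR adjusted p = 0.0851). Over the list 1 of 5 fell and 0 rose, with a median of 0.27, where 7.58% of all tested genes were called lower. MR1, HFE and FCGRT, outside the stretch, were at log2 fold changes of 0.28, 0.27 and 0.43 and did not pass.

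The ULBP genes, further NKG2D ligands on the long arm of chromosome 6, numbered 6. Of the 3 tested, 1 rose, with a median of 0.56, where 9.71% of all tested genes were called higher. ULBP1 had counts of 110, 172 and 148 in controls against 212, 267 and 228 after knockdown. Its groups did not overlap, as for 20.1% of tested genes with knockdown higher. It rose by 0.65 ± 0.17 (SE; edgeR adjusted p = 0.0225), a call lost on leaving out control replicate 1 or 3 or replicate 2 of the knockdown (edgeR adjusted p up to 0.109). ULBP2 was at 0.56 ± 0.21 (edgeR adjusted p = 0.0864) and ULBP3 at -0.02 ± 0.16. Of 11 class II genes, 9 lie in the stretch and 2 were tested, with a median of 0.07. These were HLA-DRA at 1.02 CPM and the invariant chain gene CD74 at 0.686 CPM in the control libraries. Neither passed. HLA-DRA lies in the stretch, and the part of its RNA that its counts represent was not tested.

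Over the 6 libraries, the genes whose centred log2 CPM lay nearest to PSMB10 were SIVA1, STRA13, SNHG8, PDF and RRP9, at distances of 0.121 to 0.145 log2 units among 10745 genes compared. For B2M they were RELL1, HOXB7, RPL39L, CMC2 and HEBP2, at 0.141 to 0.16. Neighbours of PSMB10 had log2 fold changes of -0.63 to -0.72 and those of B2M of -0.11 to -0.22. The distance includes the difference between the groups, so fold changes near those of PSMB10 and B2M follow from the selection. These points share library, depth and group. The same measure for the mean of HLA-B and HLA-C, the pair named for it, rests on at most 5 counts of HLA-B and 9 of HLA-C a library and is not read; PSMB10 and B2M were taken in its place after the values were seen.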

How the data were processed

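RNA was sequenced from 3 control and 3 knockdown libraries, grouped by their titles. The deposited values are raw counts, 1 row per gene symbol. HISAT2 (2.0.4) and GRCh38 are named, per the submitters' processing notes. For the counting tool, annotation, strandedness and treatment of reads with several matches, no statement was found: not given in the sources used here. GRCh38 is distributed with alternate sequences of the MHC; whether the authors' index held them is not given either, and its part in the low counts there was not tested.

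After filterByExpr and TMM scaling, 13896 genes entered the quasi-likelihood F test of edgeR 4.0.16 (limma 3.58.1, R 4.3.3). P-values were adjusted by Benjamini-Hochberg over all of them, and 0.05 was the threshold. Intervals are 95% intervals. RPKM used merged exons of GENCODE release 29. Ratios had 0.5 added to each count. A detected gene had a mean of at least 10 counts. The main edgeR fit was tested on simulated data first, and the other procedures were not. Replicates differed by more than sampling noise (2.56 to 31.6 chi-square units per degree of freedom).

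Named genes are MTHFD2, the members, list genes past the threshold or, where none was, the 2 most abundant, and others where said or as pathway context. Members and lists were chosen with earlier results of these data known. Alternatives were RLE factors, plain library totals, DESeq2 1.42.0, other filters, a threshold of 0.01, a replicate block, each library left out, knockdown replicate 2 alone and, chosen after seeing the data, removal of GC content and length trends and of the genes between HLA-F and TAPBP. Some genes of the lists enter their counts and medians but are not reported here by name.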

Additional observations from a re-analysis of the deposited data

How the results depend on the processing

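Of the 3 tested members, PSMB10 kept a negative log2 fold change in all 15 other fits (-1.14 to -0.47) and its call in 13 of them, B2M a negative one in 15 of 15 with a call in 2, and TAP2 in 13 of 14 with a call in 1. The number of members called lower was 1, ranged from 0 to 2 when any single library was left out, and was 3 with knockdown replicate 2 alone, where the spread of a lone library is taken from the other group. At a threshold of 0.01 it was 0, and 749 genes passed in all, against 2402 at 0.05. Over all genes, leaving out 1 library gave 986 to 2645 calls, and knockdown replicate 2 alone 4432. Adding the replicate number as a block gave 5062 calls. Whether the numbers pair the libraries was not tested. The deviations of libraries with the same number correlated at -0.0204, 0.297 and 0.353. Those of libraries with different numbers correlated at -0.405 to 0.165. Deviations were taken from the mean of each group and cancel out within it, so these correlations are tied to one another. Knockdown replicate 1 correlated best with control replicate 3, at 0.0477. Under the block PSMB10 was at -0.67 (edgeR adjusted p = 2.95e-08), B2M at -0.22 (0.0527) and PSMB7 at -0.23 (0.0295). The log2 ratio of PSMB10 to PSMB7 differed by -0.45 under the same block and by -0.59 to -0.33 with any 1 library left out. Without GC content and length trends PSMB10 was at -0.50 (edgeR adjusted p = 0.0107) and B2M at -0.35 (0.088). Leaving out the genes between HLA-F and TAPBP left PSMB10 at -0.66. That fit could hardly differ, as the stretch held 2483 summed mean counts, beside 17806000 over all other protein-coding genes. The cause of the shifts between fits was not tested. Depth did not limit B2M or PSMB10, while the counts inside the MHC allow no statement on HLA-B, HLA-C, TAP1, TAPBP, PSMB8 or PSMB9.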

Other observations

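RPS9, a protein of the small ribosomal subunit whose gene lies on chromosome 19, had 1 count over all 6 libraries. In the window around it (54040825 to 55001142), 29 of 38 protein-coding genes had 0 counts in all 6 libraries and 2 reached a mean of 10. Over 198 windows with at least 20 such genes, the median share reaching that mean was 63.3%. The window holds the LILR and KIR receptor genes, most of which belong to leukocytes. The window was chosen after the values were seen, and whether it shares anything with the MHC was not tested.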
